A study of Mus musculus with 8 samples.

Results

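Transcription factors that pattern the ventral forebrain and the diencephalon were followed across brain RNA-seq libraries of wild-type mice and of mice labelled as knockouts of Nsun5, which encodes an RNA cytosine methyltransferase. The members were the rows of the count table named Nkx2-1, Otp, Sim1, Six3, Isl1, Lhx6, Lhx8, Zic1, Zic2 and Zic4, which are 10 of its 54532 genes. Each name had 1 row, and 9 of the 10 members held enough counts for the genotype test, Otp being the exception. All libraries came from brain tissue of male mice aged 3 months. They were 4 libraries labelled WT and 4 labelled Nsun5-KO, numbered 1 to 4 in each group. The protocol in the labels speaks of 5 mice per genotype from the same litter and of pentobarbital at 50 mg per kg. It does not say which animal gave which library or whether animals were pooled, so the p-values below measure the spread between these libraries.

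Homeodomain and zinc finger factors of this kind divide the embryonic forebrain into territories, and many stay on in the adult neurons that arise there. Nkx2-1 marks the medial ganglionic eminence and the ventral hypothalamus. Otp and Sim1 are needed for the neuroendocrine neurons of the hypothalamus that make oxytocin, vasopressin and thyrotropin-releasing hormone. Six3 acts in early forebrain and eye formation and later in striatal projection neurons. Isl1 and Lhx8 are LIM homeodomain factors of striatal and basal forebrain neurons, Lhx8 above all of cholinergic ones, and Lhx6 is kept by cortical interneurons that make somatostatin or parvalbumin. The ZIC factors are zinc finger proteins of the dorsal midline, septum, olfactory bulb, cerebellum and meninges. In bulk tissue, fewer cells of a type and less RNA per cell cannot be told apart.

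Sequences upstream of the RefSeq start of 5 members are shown because the results below turn on these genes. For Lhx8 and Zic1 the results also turn on a gene of the opposite strand, which starts next to Lhx8 and inside the span of Zic1. The sequences shown are RefSeq sequences of GRCm38.p6, read 5′ to 3′ on the gene's own strand and trimmed to the stretch that no annotated exon covers. The intervals are chr12:56536909-56537158 (minus strand) for Nkx2-1, chr17:85620584-85620789 (plus) for Six3 and chr13:116309690-116309938 (minus) for Isl1. Those of Lhx8 and Zic1 are chr3:154330660-154330810 (minus) and chr9:91365811-91366018 (minus). The RefSeq start of Six3 lies inside the longer span that the count table gives the gene, so its stretch is not upstream of that span. The Zic1 stretch lies inside the span of Zic4. Capitals mark matches to the CCAAT box (CCAAT, or ATTGG on the other strand) and the GC box (GGGCGG, or CCGCCC).
Nkx2-1: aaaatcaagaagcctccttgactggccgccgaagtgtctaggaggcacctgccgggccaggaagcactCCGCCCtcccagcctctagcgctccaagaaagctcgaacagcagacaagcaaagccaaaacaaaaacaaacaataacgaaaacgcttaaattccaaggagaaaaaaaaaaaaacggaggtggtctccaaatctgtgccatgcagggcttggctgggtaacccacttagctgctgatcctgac
Six3: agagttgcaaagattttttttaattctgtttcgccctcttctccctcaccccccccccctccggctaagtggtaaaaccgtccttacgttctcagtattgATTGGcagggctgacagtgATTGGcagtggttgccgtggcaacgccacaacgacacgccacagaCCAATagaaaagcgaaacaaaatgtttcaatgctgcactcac
Isl1: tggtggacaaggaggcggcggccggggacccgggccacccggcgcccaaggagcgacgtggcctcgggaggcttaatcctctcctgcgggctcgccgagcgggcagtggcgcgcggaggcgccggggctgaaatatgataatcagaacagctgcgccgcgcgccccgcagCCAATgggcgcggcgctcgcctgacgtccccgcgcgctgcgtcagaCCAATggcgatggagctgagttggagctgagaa
Lhx8: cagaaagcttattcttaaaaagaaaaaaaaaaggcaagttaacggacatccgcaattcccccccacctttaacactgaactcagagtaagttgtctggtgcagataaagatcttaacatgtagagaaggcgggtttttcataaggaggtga
Zic1: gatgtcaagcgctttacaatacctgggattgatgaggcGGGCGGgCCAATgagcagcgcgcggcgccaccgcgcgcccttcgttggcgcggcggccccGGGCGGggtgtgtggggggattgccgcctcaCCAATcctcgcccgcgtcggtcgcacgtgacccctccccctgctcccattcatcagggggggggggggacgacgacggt
The Six3 stretch held 3 CCAAT boxes and the Isl1 stretch 2, while that of Zic1 held 2 CCAAT and 2 GC boxes and that of Lhx8 neither. RefSeq promoter windows of 300 bases were found for 9 of the 10 members, Zic2 being the one without. There were 11 windows for these 9 members, 3 of them for Lhx6, and a member is counted if any of its windows matched, while the shares below are per window. A CCAAT box was present for 5 of these 9 (Isl1, Lhx6, Otp, Six3 and Zic1) and in 37.4% of all 32851 windows. A GC box was present for 4 of 9 (Lhx6, Nkx2-1, Otp and Zic1) and in 35.7% of all windows. The letters TATAAA were present for Lhx6 and Sim1 and in 13.6% of windows, and CAAGTG, a core bound by NKX2-1, for Zic4 and in 13.6%. The homeodomain core TAATTA was in none of the 9 and in 5.29% of all windows. Each motif was searched on both strands, matches of different motifs did not overlap in the sequences shown, and a match is a description of letters only.

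The libraries held 15642086 to 17829523 counts over genes, with 22210 to 22944 genes detected in each. CPM below is a gene's count scaled to its library's total, adjusted by TMM, the scaling between libraries that edgeR applies. Nsun5 itself, read off first as a check of the labels, did not differ beyond the spread of its libraries. It stood at 5.74 ± 0.538 CPM (SD, n = 4) in WT and 6.28 ± 0.887 in Nsun5-KO. Its log2 fold change, Nsun5-KO over WT, was 0.13 (SE 0.15, adjusted p = 0.817, edgeR), so the RNA level did not check the labels, and a deletion of part of the gene was not examined. WT 1 and WT 2 stood apart from the other 6 libraries on the first principal component of all genes (25.7% of the variance), and the members' fold changes are therefore also given without both. Within a group, libraries differed far beyond counting noise, so none was a repeat of another. The cerebellar markers Gabra6 and Pcp2 were at 0 to 30 and 0 to 19 counts, each highest in WT 2, while other genes of the cerebellar list, which other regions also express, were well detected.

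Every one of the 10 members had a lower mean CPM in the libraries labelled Nsun5-KO, and no member passed the threshold of the main test (edgeR quasi-likelihood test, adjusted p below 0.05 over the 16062 genes tested). Across all genes that test called 0, with 811 lower and 852 higher at an unadjusted p below 0.05. The 9 members tested all had a log2 fold change below 0, as had 51.4% of all genes, and 6 of the 9 lay lower at an unadjusted p below 0.05, as did 5.05% of all genes. The 6 were Nkx2-1, Sim1, Isl1, Zic1, Zic2 and Zic4. None lay higher at that level, against 5.3% of all genes. A log2 fold change of -1 or below was found for 6 of the 9 members and 1.06% of all genes, and the members' median was -1.18 beside -0.005 for all genes. Sim1 and Lhx8 cleared the filter on low counts mainly through their WT libraries, and the members had been picked with earlier results of these data known, so these shares describe the members and are no test of them. The count of 6 dropped to 3 without WT 2. Without WT 1 and WT 2 the log2 fold changes were -1.31 for Nkx2-1, -1.93 for Sim1, -0.48 for Six3, -1.21 for Isl1, -0.29 for Lhx6, -2.44 for Lhx8, -1.33 for Zic1, -0.55 for Zic2 and -1.26 for Zic4. All 9 stayed below 0. The count at an unadjusted p below 0.05 was again 6, but not of the same members. Sim1 (unadjusted p = 0.127, edgeR) and Isl1 (0.0798) left it, and Lhx6 (0.0254) and Lhx8 (0.0361) came in.

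**Figure D1:**
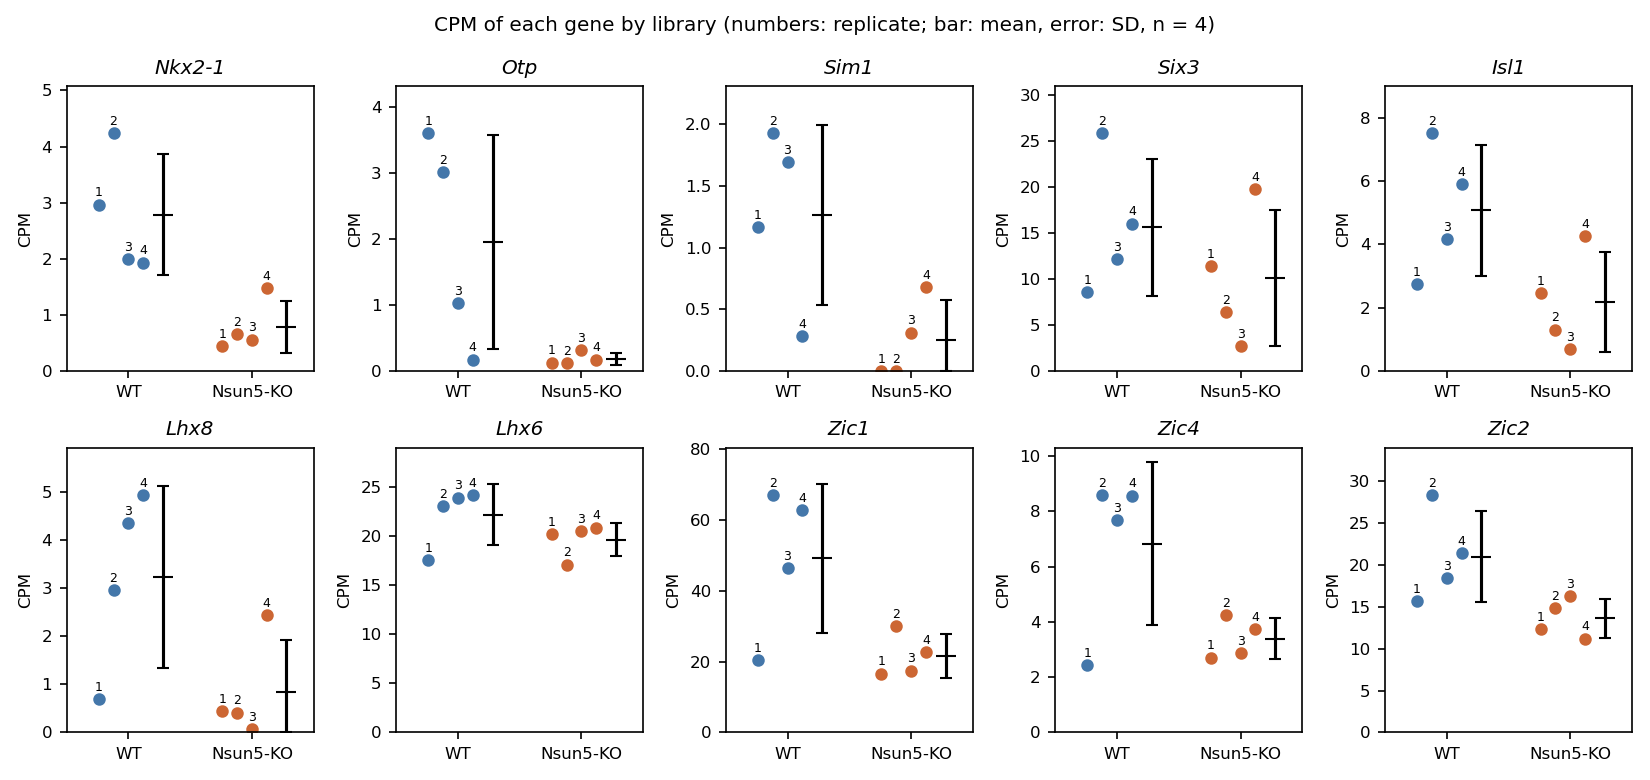
CPM of each member in each of the 8 libraries, 1 panel per gene with its own linear axis, points for libraries and bars for the mean ± SD of 4 libraries. The groups are separate for Nkx2-1 (1.93 to 4.23 in WT, 0.44 to 1.48 in Nsun5-KO) and share part of their range for the other 9 members.

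Nkx2-1 (ENSMUSG00000001496, chr12:56531958-56536908 in mm10, minus strand), the homeodomain factor of the ventral hypothalamus and medial ganglionic eminence, was the member with the clearest separation. Its counts were 51, 66, 33 and 34 in WT 1 to 4 and 7, 11, 9 and 26 in Nsun5-KO 1 to 4. In CPM these were 2.97, 4.23, 2.00 and 1.93 against 0.44, 0.65, 0.56 and 1.48. Each WT library lay above each Nsun5-KO library, which held for no other member and for 2.71% of all genes in that direction. No member had groups that were apart in the other direction, against 2.99% of all genes. Mean CPM was 2.78 ± 1.08 and 0.781 ± 0.471 (SD, n = 4 each; exact two-sided permutation p = 0.0286, the smallest that 70 labelings can give). The log2 fold change was -1.81 (SE 0.41, 95% interval -2.69 to -0.92, unadjusted p = 0.00078, adjusted p = 0.307, edgeR). The call depended on the tool and filter. DESeq2 gave -1.82 with an adjusted p of 0.0132, where 0.3% of genes were called lower. edgeR without the low-count filter gave -1.80 with an adjusted p of 0.0121, where 0.107% of genes were called lower.

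Otp (ENSMUSG00000021685, chr13:94875602-94885130, plus strand), a homeodomain factor of neuroendocrine neurons, was nearly restricted to 3 WT libraries. Its counts were 62, 47, 17 and 3 in WT and 2, 2, 5 and 3 in Nsun5-KO. WT 1 to 3 were therefore high and WT 4 stood at the level of the Nsun5-KO libraries, so the groups overlapped. Mean CPM was 1.95 ± 1.62 and 0.181 ± 0.0894 (n = 4 each, exact permutation p = 0.0857). The low-count filter removed Otp, and edgeR without it gave a log2 fold change of -3.37 (SE 0.92, adjusted p = 0.338).

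Sim1 (ENSMUSG00000019913, chr10:50894754-50989152, plus strand), a bHLH-PAS factor of the same neuroendocrine lineage, had 20, 30, 28 and 5 counts in WT and 0, 0, 5 and 12 in Nsun5-KO. WT 1 to 3 were again high and WT 4 low, and Nsun5-KO 4 lay above WT 4. Mean CPM was 1.27 ± 0.728 and 0.248 ± 0.324 (n = 4 each, exact permutation p = 0.0857). The log2 fold change was -2.28 (SE 0.86, interval -4.20 to -0.36, adjusted p = 0.414, edgeR), and it was -3.52 without Nsun5-KO 4.

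Genes of hypothalamic neurons differed between the libraries along with these 3 members. The 23 hypothalamic peptide and enzyme genes summed to 737, 727, 568 and 542 CPM in WT 1 to 4 and to 422, 462, 413 and 533 in Nsun5-KO 1 to 4. Some of them are also in lists of other regions, such as Npy and Vip (cortical interneurons), Nts (septum) and Trh (olfactory bulb). The sum is therefore not of hypothalamic cells alone. Of the 14 tested, 12 lay below WT, 7 of them at an unadjusted p below 0.05, and 1 lay higher at that level. Their median log2 fold change was -1.12, and none passed the adjusted threshold. Tac2, which encodes neurokinin B, had a log2 fold change of -1.03 (SE 0.16, adjusted p = 0.178, edgeR). Hdc, the histamine-synthesizing enzyme, gave -2.17 (SE 0.39) and the orphan receptor gene Gpr50 gave -1.92 (SE 0.43), and for all 3 the groups did not overlap. These 3 were named for the smallest p in the list, so their separation is a description only. Groups were apart in that direction for 2.71% of all genes. Several defining peptides were concentrated in a few libraries. Hcrt (hypocretin) had 601 and 166 counts in WT 1 and WT 2 and 0 to 14 in the other 6. Pmch (melanin-concentrating hormone) had 901 and 281 in the same 2 libraries and 0 to 17 elsewhere. Avp (vasopressin) had 252, 267, 701 and 10 counts in WT and 37, 10, 6 and 4 in Nsun5-KO. Kiss1 and Nms were at 5 counts or fewer over all libraries. The part of these cells in the values of Nkx2-1, Otp and Sim1 was not tested.

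Six3 (ENSMUSG00000038805, chr17:85613608-85629302, plus strand) was measured at 8.55, 25.8, 12.1 and 16.0 CPM in WT and 11.4, 6.38, 2.67 and 19.7 in Nsun5-KO. WT 2 and Nsun5-KO 4 were the high libraries and Nsun5-KO 3 the low one, with the groups largely overlapping. The means were 15.6 ± 7.43 and 10.04 ± 7.39 CPM (n = 4 each, exact permutation p = 0.343). The log2 fold change was -0.63 (SE 0.61, interval -2.08 to 0.83, adjusted p = 0.779, edgeR), and 1 library moved it widely: it was -0.28 without WT 2, -0.32 without Nsun5-KO 3 and -1.20 without Nsun5-KO 4.

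Isl1 (ENSMUSG00000042258, chr13:116298281-116309689, minus strand), a LIM homeodomain factor of striatal direct-pathway and cholinergic neurons, followed nearly the same order of libraries at a lower level. It stood at 2.73, 7.50, 4.17 and 5.90 CPM in WT and 2.45, 1.30, 0.684 and 4.25 in Nsun5-KO. Nsun5-KO 4 lay among the WT libraries and the other 3 below them all. For Isl1 the log2 fold change was -1.21 (SE 0.51, interval -2.35 to -0.07, unadjusted p = 0.0399, adjusted p = 0.459, edgeR; exact permutation p = 0.0857 on CPM, n = 4 each).

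Lhx8 (ENSMUSG00000096225, chr3:154306294-154330659, minus strand), the LIM homeodomain factor of forebrain cholinergic neurons, had 12, 46, 72 and 87 counts in WT and 7, 7, 1 and 43 in Nsun5-KO. WT 1 was thus near the low Nsun5-KO libraries and Nsun5-KO 4 near the high WT ones. Mean CPM was 3.23 ± 1.89 and 0.839 ± 1.08 (n = 4 each, exact permutation p = 0.0571). Lhx8 had a log2 fold change of -1.91 (SE 0.87, interval -3.92 to 0.09, adjusted p = 0.496, edgeR) and -3.37 without Nsun5-KO 4.

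Marker genes of the striatum and of cholinergic neurons varied with these members. The 12 genes of striatal medium spiny neurons summed to 474, 2413, 1660 and 1951 CPM in WT and 1462, 981, 627 and 2300 in Nsun5-KO. All 12 lay below WT, none at an unadjusted p below 0.05, with a median log2 fold change of -0.31. The 8 cholinergic genes summed to 110, 140, 127 and 140 CPM in WT and 88.1, 92.9, 61.2 and 131 in Nsun5-KO. All 8 lay below WT, 2 at an unadjusted p below 0.05, with a median of -0.74. The nerve growth factor receptor gene Ngfr gave -1.25 (SE 0.31, adjusted p = 0.313, edgeR), and its groups did not overlap. It was named for its small p in the list, and 2.71% of all genes had groups apart in that direction. Chat, which makes acetylcholine, had 30, 145, 116 and 104 counts in WT and 69, 47, 23 and 116 in Nsun5-KO, so WT 1 was as low as the low Nsun5-KO libraries. WT 1 and Nsun5-KO 3 had the least of the medium spiny genes, and WT 2 and Nsun5-KO 4 the most. The part of these cells in the values of Six3, Isl1 and Lhx8 was not tested.

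**Figure D2:**
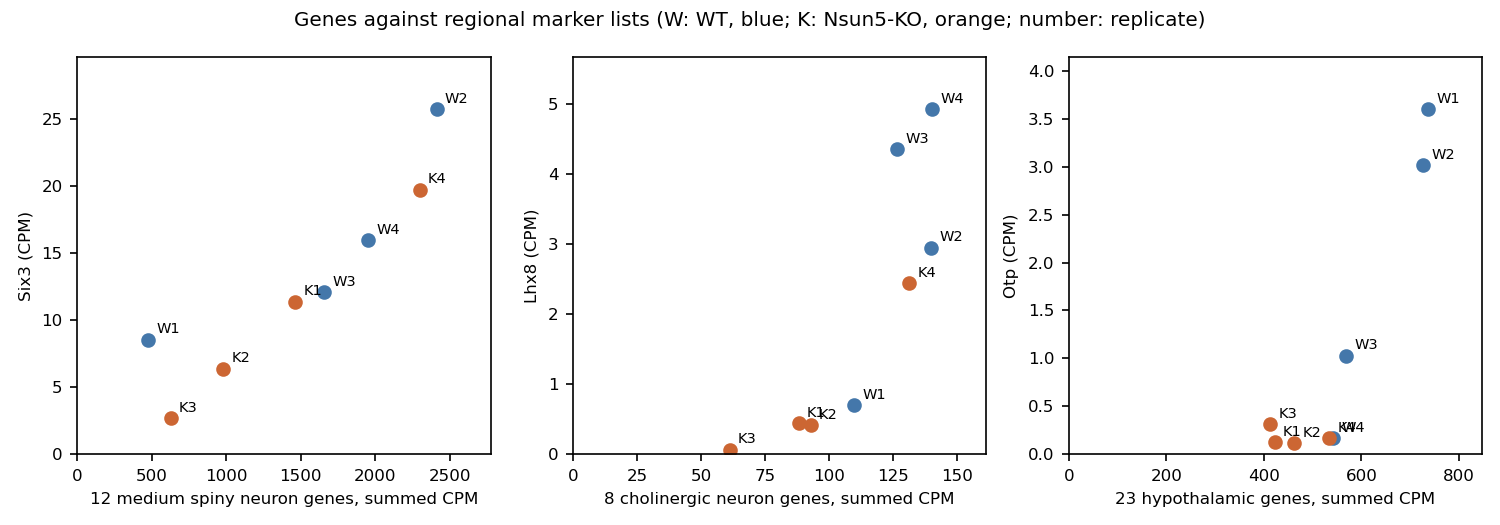
3 members against the summed CPM of a marker list in the 8 libraries, 1 point per library: Six3 with 12 medium spiny neuron genes, Lhx8 with 8 cholinergic genes and Otp with 23 hypothalamic genes. WT 1 and Nsun5-KO 3 lie low on the medium spiny axis (474 and 627 CPM) and WT 2 and Nsun5-KO 4 high (2413 and 2300 CPM), and Six3 is lowest in Nsun5-KO 3 and highest in WT 2.

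Lhx6 (ENSMUSG00000026890, chr2:36081953-36105408, minus strand), the LIM homeodomain factor of interneurons derived from the medial ganglionic eminence, was the steadiest member. It stood at 17.6, 23.1, 23.9 and 24.2 CPM in WT and 20.2, 17.1, 20.5 and 20.9 in Nsun5-KO. WT 2 to 4 were above every Nsun5-KO library and WT 1 was among them. The means were 22.2 ± 3.13 and 19.7 ± 1.73 CPM (n = 4 each, exact permutation p = 0.2). Its log2 fold change was -0.17 (SE 0.12, interval -0.43 to 0.08, adjusted p = 0.650, edgeR), and -0.27 without WT 1. Cortical interneuron genes summed to 1352 to 1662 CPM in WT and 1128 to 1496 in Nsun5-KO. Of the 13 tested, 9 lay below WT, and 2 were lower and 1 higher at an unadjusted p below 0.05 (median -0.26). Sst, the somatostatin gene of Lhx6 interneurons, gave a log2 fold change of -0.35 (SE 0.096, adjusted p = 0.313, edgeR).

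Zic1 (ENSMUSG00000032368, chr9:91358058-91365810, minus strand) was the most abundant member per length in WT. It stood at 20.5, 67.0, 46.4 and 62.7 CPM in WT and 16.6, 30.0, 17.4 and 22.6 in Nsun5-KO. WT 2 to 4 lay above every Nsun5-KO library, and WT 1 lay within their range. The means were 49.1 ± 21.1 and 21.7 ± 6.17 CPM (n = 4 each, exact permutation p = 0.0857). In the edgeR fit Zic1 was at a log2 fold change of -1.18 (SE 0.39, interval -2.11 to -0.25, unadjusted p = 0.0198, adjusted p = 0.412, edgeR).

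Zic4 (ENSMUSG00000036972, chr9:91362413-91389348, plus strand) starts inside the span of Zic1 and runs the other way. It stood at 2.44, 8.59, 7.68 and 8.56 CPM in WT and 2.70, 4.25, 2.86 and 3.75 in Nsun5-KO. As for Zic1, WT 2 to 4 lay above every Nsun5-KO library, and WT 1 was the lowest of all 8. Zic4 had a log2 fold change of -1.0 (SE 0.35, interval -1.78 to -0.22, unadjusted p = 0.0166, adjusted p = 0.412, edgeR; exact permutation p = 0.143 on CPM, n = 4 each).

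Zic2 (ENSMUSG00000061524, chr14:122475435-122479852, plus strand) lies on another chromosome and stood at 15.7, 28.3, 18.4 and 21.4 CPM in WT and 12.3, 14.8, 16.3 and 11.2 in Nsun5-KO. Only Nsun5-KO 3 reached above the lowest WT library, WT 1. The log2 fold change was -0.62 (SE 0.18, interval -1.02 to -0.22, unadjusted p = 0.00584, adjusted p = 0.330, edgeR; exact permutation p = 0.0571 on CPM, n = 4 each).

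Tissues in which ZIC genes are known to be active were represented unevenly. Septal neuron genes summed to 139 to 193 CPM in WT and 103 to 168 in Nsun5-KO, with 7 of 8 below WT, 3 of them at an unadjusted p below 0.05 (median -0.43). Olfactory bulb genes summed to 67.7, 53.9, 21.8 and 23.3 CPM in WT and 15.2 to 28.8 in Nsun5-KO. Of the 6 tested 4 lay below WT, and 3 were lower and 1 higher at an unadjusted p below 0.05 (median -1.14). Meningeal fibroblast genes summed to 91.3 to 192 CPM in WT and 87.8 to 129 in Nsun5-KO, 10 of 12 below WT and 1 at an unadjusted p below 0.05 (median -0.26). Cerebellar genes summed to 279 to 349 CPM in WT and 273 to 299 in Nsun5-KO, 5 of 9 tested below WT and 1 at an unadjusted p below 0.05 (median -0.03). WT 1, low in Zic1 and Zic4, was not low in any of these 4 sums. It was the lowest WT library in some other marker sums, ependymal genes among them. These summed to 34.7, 55.9, 43.1 and 48.6 CPM in WT 1 to 4 and 15.5 to 29.1 in Nsun5-KO. The part of any of these cells in the ZIC values was not tested.

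**Figure D3:**
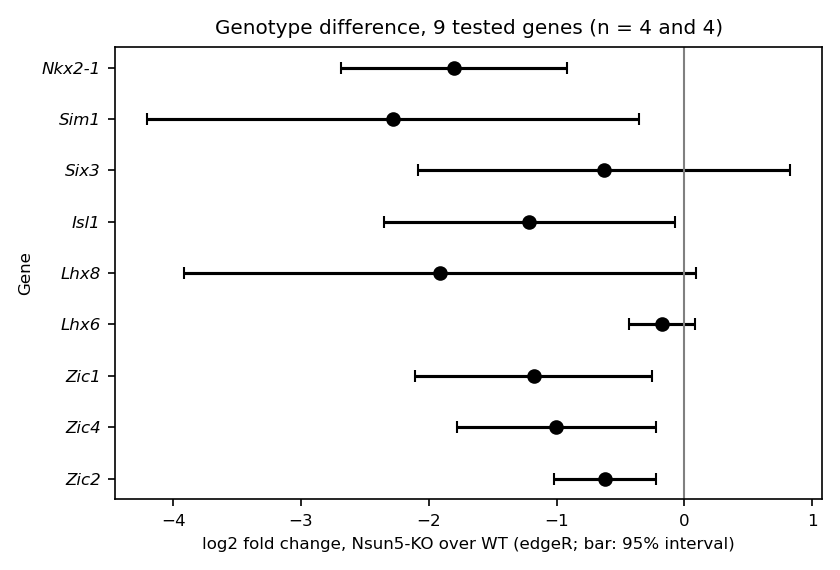
Log2 fold changes, Nsun5-KO over WT, of the 9 members tested by edgeR, with 95% intervals as horizontal bars and a line at 0. All 9 estimates lie below 0, from -2.28 for Sim1 to -0.17 for Lhx6, and the intervals of Six3, Lhx6 and Lhx8 cross 0.

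Compared per length, the deposited FPKM values, which divide by gene length as well as depth, ordered the members in WT as Zic1 8.55 ± 3.67, Zic2 7.21 ± 1.87, Lhx6 4.58 ± 0.649, Six3 2.84 ± 1.35 and Isl1 1.27 ± 0.518 (SD, n = 4). The lower end held Lhx8 at 1.27 ± 0.739, Nkx2-1 at 0.969 ± 0.374, Otp at 0.671 ± 0.557, Zic4 at 0.654 ± 0.283 and Sim1 at 0.145 ± 0.0836. Between neighbours in this order, only the WT ranges of Zic2 and Lhx6 and those of Zic4 and Sim1 were apart. In Nsun5-KO, Zic2 (4.71 ± 0.815), Lhx6 (4.07 ± 0.353) and Zic1 (3.78 ± 1.08) led, and Sim1 was lowest at 0.0285 ± 0.0372.

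Which members varied together was measured over the 8 libraries on log2 CPM, for all 45 pairs of members. All 45 correlations were above 0, with a median r of 0.597. This count and this median include the pairs with Sim1, Lhx6 and Zic4. Libraries of those members formed separate sets, so their single pooled values are not given below. With each group's mean subtracted, 32 pairs were above 0 and the median r was 0.347. Pairs are described below by territory, but the members did not divide into separate blocks. With group means subtracted, Nkx2-1 gave r = 0.540 with Six3 and 0.498 with Isl1, beside 0.478 with Otp. Likewise Lhx8 gave 0.608 with Zic1 and 0.675 with Zic4, beside 0.641 for Zic1 with Zic2, and Lhx6 gave 0.684 with Zic4.

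**Figure D4:**
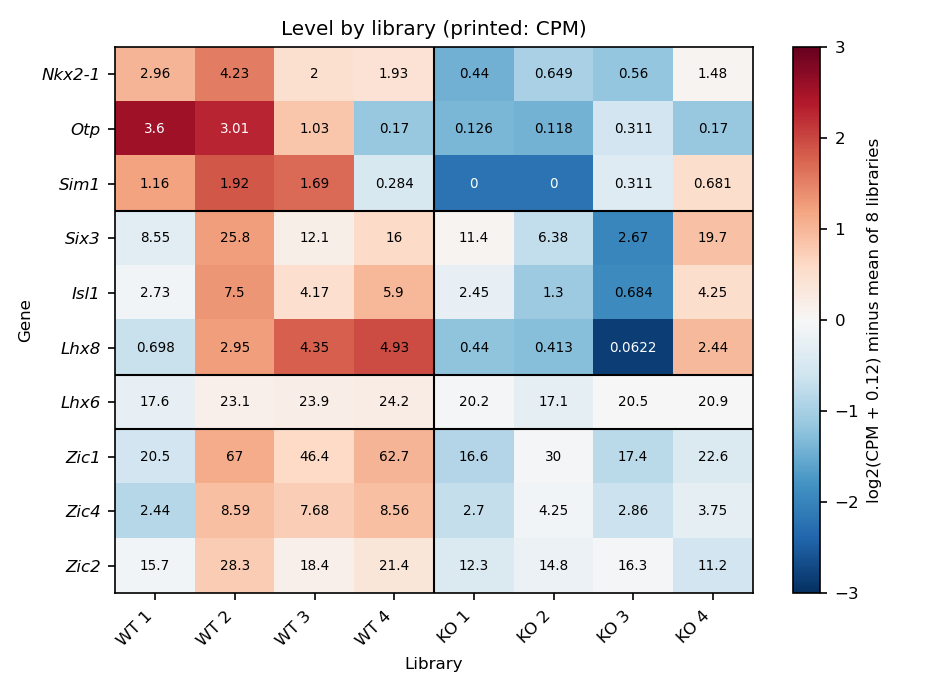
Each member's log2(CPM + 0.12) in each library minus its mean over the 8 libraries, with the CPM printed in each cell. Otp is at 3.60 CPM in WT 1, where Lhx8 is at 0.698, and the reverse holds in WT 4, with Otp at 0.17 and Lhx8 at 4.93.

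Six3 and Isl1 gave Pearson r = 0.957 (exact permutation p = 0.000422, 0.00949 adjusted over the 45 pairs) and Spearman rho = 0.952 (exact permutation p = 0.00114, adjusted 0.0502). Leaving out WT 2 and Nsun5-KO 3, the libraries farthest from the median of Six3, gave r = 0.867. With group means subtracted r was 0.990, so the pair moved together within the groups too, and without WT 1 and WT 2 it was 0.948. Isl1 and Lhx8 gave r = 0.925 (exact permutation p = 0.000942, adjusted 0.0141) and rho = 0.881 (exact permutation p = 0.00724, adjusted 0.0815). This r was 0.829 without Nsun5-KO 2 and 3 and 0.864 with group means subtracted. Six3 and Lhx8 gave r = 0.848 (exact permutation p = 0.00667, adjusted 0.0634) and rho = 0.786 (exact permutation p = 0.0279, adjusted 0.180). Without WT 2 and Nsun5-KO 3 this r was 0.728, and it was 0.824 with group means subtracted.

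The ZIC pair on chromosome 9 kept nearly one proportion in all libraries. Zic1 counts were 8.38, 7.8, 6.04 and 7.32 times those of Zic4 in WT 1 to 4 and 6.14, 7.06, 6.09 and 6.05 times in Nsun5-KO 1 to 4, so the highest ratio was 1.39 times the lowest. The groups overlapped in this ratio (exact permutation p = 0.143, n = 4 each). Zic4 divided into a low set of 5 libraries and a high set of 3 (WT 2 to 4), so no pooled correlation is given for it, and within groups Zic1 and Zic4 gave r = 0.970 as a description. Zic1 and Zic2 gave r = 0.830 over the 8 libraries (exact permutation p = 0.00846, adjusted 0.0634) and rho = 0.714 (exact permutation p = 0.0576, adjusted 0.185). The r was 0.525 without WT 2 and WT 4, the libraries farthest from the median of Zic1, 0.780 without WT 1 and WT 2, and 0.641 with group means subtracted.

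Among the hypothalamic members, Nkx2-1 and Otp gave r = 0.794 (exact permutation p = 0.0251, adjusted 0.111) and rho = 0.762 (exact permutation p = 0.0368, adjusted 0.184). The r was 0.836 without Nsun5-KO 1 and 3, the libraries farthest from the median of Nkx2-1, 0.478 with group means subtracted and 0.485 without WT 1 and WT 2. Sim1 libraries formed separate low and high sets, and within groups Sim1 gave r = 0.698 with Nkx2-1 and 0.599 with Otp. Pairs listed under different territories ranged widely, though Nkx2-1 marks the medial ganglionic eminence as well as the hypothalamus. Lhx8 and Zic1 gave r = 0.793 (exact permutation p = 0.0274, adjusted 0.111) and rho = 0.738 (exact permutation p = 0.0458, adjusted 0.185), and r = 0.689 without WT 4 and Nsun5-KO 3. Nkx2-1 and Isl1 gave r = 0.767 (exact permutation p = 0.0272, adjusted 0.111) and rho = 0.714 (exact permutation p = 0.0576, adjusted 0.185), and r = 0.758 without Nsun5-KO 1 and 3. For Nkx2-1 and Lhx8 r was 0.706 (exact permutation p = 0.0602, adjusted 0.169) and rho 0.643 (exact permutation p = 0.0962, adjusted 0.206). That r was 0.443 without Nsun5-KO 1 and 3, 0.347 with group means subtracted and 0.932 without WT 1 and WT 2. Otp and Lhx8 were among the weakest at r = 0.219 over all libraries (exact permutation p = 0.594, adjusted 0.632) and rho = 0.262 (exact permutation p = 0.536, adjusted 0.589). With group means subtracted r was -0.523, and without WT 1 and WT 2 it was 0.331. Within WT, Otp was highest and Lhx8 lowest in WT 1, and Lhx8 was highest and Otp lowest in WT 4. Lhx6 also divided into separate sets, and no pooled value is given for it.

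**Figure D5:**
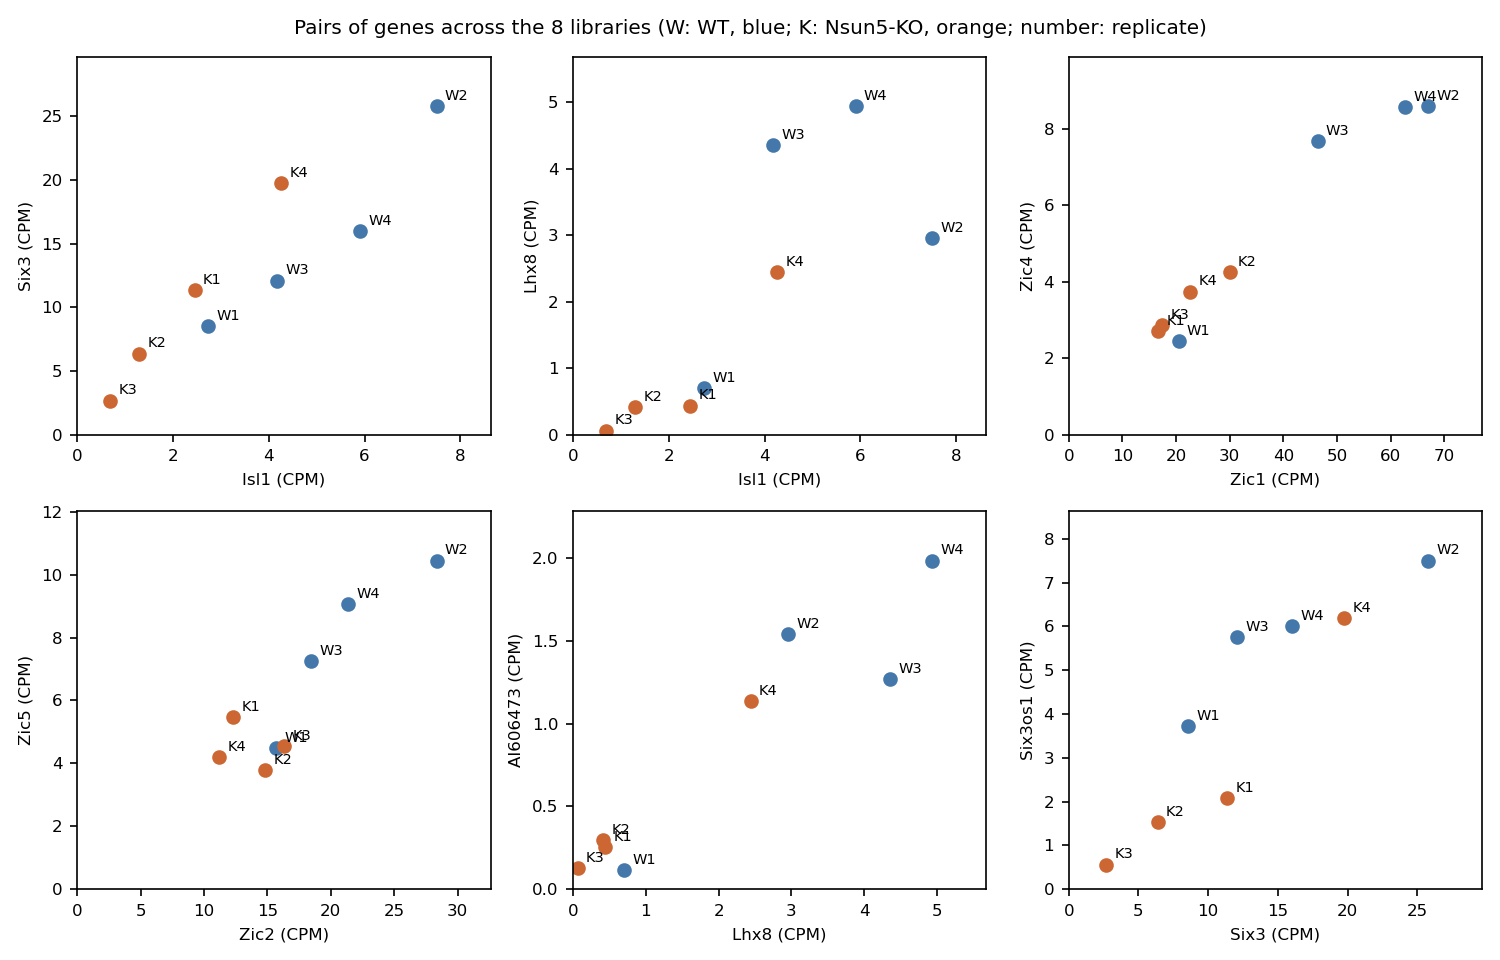
Pairs of genes over the 8 libraries on linear CPM axes, 1 point per library and 1 colour per genotype. The pairs are Isl1 with Six3, Isl1 with Lhx8, Zic1 with Zic4, Zic2 with Zic5, Lhx8 with AI606473 and Six3 with Six3os1. Zic1 and Zic4 keep a count ratio of 6.04 to 8.38, and in Isl1 against Six3 the Nsun5-KO libraries hold 3.91 to 4.91 Six3 counts per Isl1 count against 2.71 to 3.44 in WT.

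Genes that overlap a member or start close to it were compared with it. The library kit does not mark strand, so reads in shared exonic sequence cannot be told apart. Zic1 and Zic4 overlap by 3398 bases with starts 3397 bases apart, but share only 60 exonic bases, 1.05% of Zic1 and 0.581% of Zic4. Zic5, the ZIC gene that starts 9758 bases from Zic2, stood at 4.48, 10.4, 7.26 and 9.07 CPM in WT and 5.47, 3.78, 4.54 and 4.20 in Nsun5-KO (log2 fold change -0.80, SE 0.24, adjusted p = 0.330, edgeR). The noncoding gene 2610035F20Rik, which starts 236 bases from Zic2 on the other strand, gave -0.93 (SE 0.37). With group means subtracted, Zic2 gave r = 0.649 with Zic5 and 0.392 with 2610035F20Rik.

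Six3os1, the antisense gene at Six3, stood at 3.72, 7.50, 5.75 and 6.01 CPM in WT and 2.08, 1.53, 0.56 and 6.18 in Nsun5-KO (log2 fold change -1.13, SE 0.59, adjusted p = 0.554, edgeR). It shares 106 exonic bases with Six3, 1.95% of that gene's exonic length, and the 2 gave r = 0.951 with group means subtracted. AI606473 starts 162 bases from Lhx8 on the other strand, across the stretch printed above, and shares no base with it. It was low in WT 1 (0.116 CPM) and at 1.54, 1.27 and 1.99 CPM in WT 2 to 4. In Nsun5-KO it stood at 0.252, 0.295, 0.124 and 1.14 CPM, with Nsun5-KO 4 the high library as for Lhx8 (r = 0.929 with group means subtracted). Beside Nkx2-1, Sfta3-ps stood at 0.741 ± 0.276 CPM in WT and 0.368 ± 0.312 in Nsun5-KO (n = 4 each, log2 fold change -0.97, SE 0.56; r = 0.682 with group means subtracted). Gm28528, which shares 168 exonic bases with Six3, had 0 or 1 count per library, and Gm26973, antisense at Nkx2-1, 0 to 4. Gm27178 near Six3, Gm10837 near Zic2, and Gm37477 and A730094K22Rik near Zic1 and Zic4 were also at 0 to 5 counts, too few to follow across libraries. Otp, Sim1, Isl1 and Lhx6 had no gene with counts in these libraries that overlapped them or started within 20000 bases.

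Among 14174 protein-coding genes tested, those whose log2 CPM tracked a member most closely over the 8 libraries were read off as a description, being the highest of many. Six3 was closest to Tac1 (r = 0.971), the substance P gene of striatal projection neurons, then to Olfr1393 (0.959) and the synaptic vesicle gene Sv2c (0.957). The list for Lhx8 held Cep128 (0.980), Zkscan7 (0.962) and the choline transporter gene Slc5a7 (0.953). Nkx2-1 was closest to Efnb3 (0.976), Ecel1 (0.974) and Shtn1 (0.973), and Isl1 to Ccdc187 (0.981), Srgap1 (0.973) and Tekt4 (0.968). For Zic1 it was Zic4, Stac (0.961) and Atr (0.960). Zic2 was closest to Cntrl (0.939), Ccdc114 (0.939) and Ralgds (0.938). Among the members whose libraries formed separate sets, the closest genes were Zic1, Atr and Rsad2 for Zic4, Wnk1, Erap1 and Pappa for Sim1, and Kif4, Zbtb12 and Pard6b for Lhx6.

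Other factors of the same families and territories gave smaller or mixed differences, and none passed the adjusted threshold in edgeR. In the NKX2 and NKX6 families all 3 genes tested of 8 listed lay below WT, 2 at an unadjusted p below 0.05. Nkx2-2, a ventral neural tube and oligodendrocyte factor, gave -0.69 (SE 0.23) and Nkx6-2, a myelin-associated homeodomain factor, -0.64 (SE 0.22). Both were named for their small p, and their groups did not overlap, as for 2.71% of all genes in that direction. The other hypothalamic and preoptic factors had 9 of 15 tested below WT, 3 lower and 1 higher at an unadjusted p below 0.05, and a median log2 fold change of -0.03. Nkx2-2 and Nkx6-2 belong to this list as well and are counted again among its 3 lower genes. Vax1, a ventral forebrain homeodomain factor in that list, gave -1.13 (SE 0.40), and 7 of its 29 genes, Rax among them, were at 5 counts or fewer over all libraries. Of the ZIC and GLI family, 4 of 8 lay below WT, 3 of them at an unadjusted p below 0.05 (median -0.25), with Glis3 at -0.53 (SE 0.19). The sine oculis and Eya family of Six3 had 5 of 8 tested below WT, with Eya2 (-0.76) and Eya1 (-0.33) lower and Six4 (0.76) higher at an unadjusted p below 0.05 (median -0.35).

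Factors of the medial ganglionic eminence and of interneurons, a list wider than the lineage of Lhx6, had 13 of 18 below WT and a median of -0.22. At an unadjusted p below 0.05, 3 lay lower, among them Sp8, which is also in the olfactory bulb list, at -1.33 (SE 0.51). At that level 2 lay higher, with Maf at 0.36 (SE 0.12). Striatal factors had 8 of 10 tested below WT and none at that level in either direction (median -0.15). Other LIM homeodomain genes had 3 of 4 tested below WT, with Lhx2, a cortical factor, at 0.30 (SE 0.12, unadjusted p below 0.05; median -0.02). Genes of LIM cofactor complexes (LDB, LMO and SSBP families) had 3 of 9 below WT and none at that level (median 0.03). Other bHLH-PAS genes, the family of Sim1, had 5 of 9 tested below WT and none at that level (median -0.02). The 13 genes of Sonic hedgehog signalling, which induces Nkx2-1, had 7 below WT and 1 higher at that level, the co-receptor gene Boc at 0.44 (median -0.01).

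Factors of the dorsal forebrain lay the other way. Of 15 cortical and hippocampal factors tested, 14 lay above WT, 7 at an unadjusted p below 0.05 and none lower at that level (median 0.31). Cux2, of upper cortical layers, stood at 0.56, Tbr1, of deep layers, at 0.48 and Mef2c at 0.36. These genes summed to 1311 to 1652 CPM in WT and 1519 to 2133 in Nsun5-KO. Thalamic and habenular factors had 4 of 11 tested below WT and none at that level (median 0.02). Whether the share of cortex in each library bears on the values of the 10 members was not tested.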

How the data were processed

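RNA-seq was made from brain tissue of WT and Nsun5-KO mice, 4 libraries per genotype, with a kit that does not mark strand, per the labels. Reads were aligned with HISAT2 2.0.5 to mm10, per the submitters' processing notes, and the sources used here name no counter or annotation. The authors deposited a table of raw counts per gene and a table of FPKM per gene. The deposited FPKM values equal counts divided by length and 1 constant per library. Columns were matched to samples by name, and 0 columns of per-sample values matched none. Counts were tested with edgeR 4.0.16 (R 4.3.3; filterByExpr with a minimum of 10 counts, TMM scaling, robust quasi-likelihood fit, Benjamini-Hochberg adjustment over all genes tested, threshold 0.05) on all 8 libraries. The fit was tested on simulated data. CPM divides counts by the library's total over the tested genes, adjusted by its TMM factor. Single values used exact two-sided permutation tests over 70 labelings. Correlations used log2 CPM (prior count 2) and 40320 orderings. Where 1 gap held more than 0.4 of a member's range, its libraries were treated as separate sets, a limit chosen after the values were seen.

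Named genes were the 10 members, genes overlapping them or starting within 20000 bases, the 3 most alike protein-coding genes per member, the 3 genes with the smallest p in each list, and Nsun5; some of these are not reported here. Hcrt, Pmch, Avp, Chat, Kiss1, Nms, Rax, Gabra6 and Pcp2 were named after their values were seen, as were the 6 count ratios. The members and the lists were chosen with earlier results of these data known, and some genes stand in more than 1 list. Alternatives were DESeq2 1.42.0, limma 3.58.1 (voom with sample weights, and log2(FPKM + 1) or log2(FPKM + 0.1)), other scalings and filters, protein-coding genes alone, the replicate block and left-out libraries. Promoter windows reach from 250 bases before each start.

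Further marker lists were computed beside those in the results. Ependymal genes had 11 of 11 tested below WT, 9 at an unadjusted p below 0.05 (median log2 fold change -1.07), summing to 34.7 to 55.9 CPM in WT and 15.5 to 29.1 in Nsun5-KO. Choroid plexus genes had 12 of 12 below WT, 0 at that level (median -0.87). Tanycyte genes had 5 of 8 tested below WT (1 lower, 1 higher at that level), thalamic relay neuron genes 6 of 10 (1 lower, 2 higher), and pituitary genes 1 of 2 (none at that level).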

Additional observations from a re-analysis of the deposited data

Results flagged for a closer look

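In 20 groups of 4 libraries (10 members in each genotype), 3 libraries stood far from the other 3 of their group by Dixon's gap criterion, where chance marks about 1 in 20 groups. WT 1 had 17.6 CPM of Lhx6 against 23.1 to 24.2 in WT 2 to 4. The same library had 2.44 CPM of Zic4 against 7.68 to 8.59 in the other WT libraries. Nsun5-KO 4 had 2.44 CPM of Lhx8 against 0.0622 to 0.44 in the other Nsun5-KO libraries. WT 1 was the lowest WT library for 7 of the 10 members, and Nsun5-KO 4 was the highest library of its group for 6.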

How the results depend on the processing

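All members kept a log2 fold change below 0 in every fit that gave them a value, 22 fits for 9 members and 8 for Otp. No gene was called in the reported fit, while 97 were called with DESeq2 and 68 without the low-count filter (1 member in each, Nkx2-1). Leaving out 1 library gave 0 to 2 called genes, the 2 without Nsun5-KO 4. The number of members lower at an unadjusted p below 0.05 was 6, from 3 to 8 with 1 library left out, 6 without WT 1 and 2, and 3 without Nsun5-KO 1 and 3. Their median of -1.18 was -0.508 on log2(FPKM + 1), a scale that compresses low genes. Same-numbered libraries did not deviate together (r = -0.115, -0.213, -0.041 and 0.063), beside r of -0.167 to 0.182 for differently numbered ones. No pairing by number was seen, but a weak pairing could not be told from this spread. The fit with a replicate block called 0 genes and put 6 members lower at an unadjusted p below 0.05. Without Nsun5-KO 1 and 3, Six3 was at -0.25 and Isl1 at -0.86. Depth limits Otp, Sim1, Nkx2-1 and Lhx8 most, where Nsun5-KO libraries held 0 to 43 counts.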

Other observations

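Six3 and Isl1 moved together across libraries, yet their proportion differed between the groups. Six3 counts were 3.13, 3.44, 2.90 and 2.71 times those of Isl1 in WT 1 to 4 and 4.64, 4.91, 3.91 and 4.64 times in Nsun5-KO 1 to 4. The mean ratio was 3.04 ± 0.312 and 4.53 ± 0.430 (SD, n = 4 each), with no overlap (exact permutation p = 0.0286, the smallest possible, and 0.114 adjusted over the 6 ratios computed, which were chosen after the values were seen). Six3 over its antisense neighbour Six3os1 was 2.63 ± 0.588 in WT and 4.40 ± 0.973 in Nsun5-KO (n = 4 each, exact permutation p = 0.0571, adjusted 0.114), and here the groups overlapped, with WT 2 at 3.44 and Nsun5-KO 4 at 3.19. Zic2 over its neighbour Zic5 was 2.78 ± 0.506 and 3.11 ± 0.780 (n = 4 each, exact permutation p = 0.514). Lhx8 over its neighbour AI606473 was 3.46 ± 1.81 and 1.45 ± 0.704 (n = 4 each, exact permutation p = 0.0571, adjusted 0.114), from as few as 1 and 2 counts in Nsun5-KO 3. Isl1 over Lhx8 was 2.15 ± 1.37 and 5.37 ± 4.08 (n = 4 each, exact permutation p = 0.171, adjusted 0.205). None of the 6 ratios differed between the groups at an adjusted p below 0.05.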
